A study of Mus musculus with 6 samples.

Results

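The 10 genes described here make, recycle, use or degrade glutathione or belong to the oxidative stress response driven by the transcription factor NRF2. They are Gclc, Gclm, Gss, Gsr, Chac2, Hmox1, Nqo1, Txnrd1, Srxn1 and Gpx4, taken by name and matched to the gene symbols of the array's probe annotation. All 10 were on the array, with 11 probes in all (a pair for Srxn1, 1 for each other gene), and all 10 were among the 17390 genes tested. They were measured in oligodendrocyte precursor cells, the dividing glial progenitors that later form myelin, taken from embryonic forebrain (E15.5) of the mouse stock Jcl:ICR. Both groups were kept with the growth factors FGF2 and PDGF-AA and received a retrovirus: a control virus in one group (Control, 3 samples) and a virus that knocks down Chd7, which encodes a chromatin remodeller, in the other (Chd7 KD, 3 samples). RNA was collected 3 days after infection and read on 1 one-colour array per sample. The labels do not say whether samples came from separate cultures or how many cells carried the virus, so the p-values reflect the spread among these 6 samples alone, and that spread may be technical.

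Glutathione is a tripeptide of glutamate, cysteine and glycine and the main small thiol that protects cells against peroxides. Its first and limiting step is carried out by glutamate-cysteine ligase, built from the catalytic subunit GCLC and the modifier subunit GCLM. NRF2 (gene Nfe2l2) is held in the cytoplasm and degraded through KEAP1 in unstressed cells. When KEAP1 is modified by electrophiles or oxidants, NRF2 enters the nucleus, pairs with small MAF proteins and binds antioxidant response elements near genes such as Nqo1, Hmox1, Gclc, Gclm, Txnrd1 and Srxn1. Oligodendrocyte precursors are known as cells rich in iron and poor in glutathione, which makes them sensitive to oxidative injury.

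The core of the antioxidant response element, TGACNNNGC (N is any base), was searched on both strands in the 250 bases before each annotated start in RefSeq (GRCm38.p6). Of the 7 member genes with an entry, 2 held a match: Gclm and Txnrd1. Gclc, Gsr and Hmox1 had no entry and were not searched. Over all 27025 genes with an entry the share was 11.5%. Counted by window it was 16.7% of the members' 12 windows and 10.2% of all 32851. Both matches lay on the opposite strand, beginning 134 bases before the start for Gclm and 92 bases before the second of 3 annotated starts for Txnrd1. They are shown because among these 7 genes no other held the element in the window; capitals mark the match, read on the gene's strand.
Gclm, chr3:122245403-122245451, + strand: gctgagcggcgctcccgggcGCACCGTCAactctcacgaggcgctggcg
Txnrd1, chr10:82859094-82859142, + strand: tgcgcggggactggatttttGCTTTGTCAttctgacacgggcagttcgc
A match is a description of the letters and does not show that NRF2 binds there, and neither gene passed the test of expression below. Sequence outside these 250 bases was not searched, so a gene without a match may hold the element elsewhere.

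The arrays were alike in signal: their median raw intensity ran from 83.4 to 89.4 while blank spots averaged 58.9 to 61.9. On its brighter probe Chd7 fell to 54.3% of the control signal (a log2 difference, knockdown minus control, of -0.88 with SE 0.0855, adjusted p = 0.00112 in limma), in the direction of the label. Its dimmer probe showed a smaller drop, to 71.5% (log2 difference -0.48, SE 0.0676, adjusted p = 0.00411 in limma over all probes). Among the 17390 genes 781 were higher and 897 lower in the knockdown at an adjusted p below 0.05 (4.49% and 5.16%, or 9.65% together). In the authors' own processed values the share of calls that were higher was 33.2%, against 46.5% here. The precursor markers Olig1 and Pdgfra gave signal well above the blank spots on all arrays. Of the same list, Cspg4 (raw signal 81.9 to 121) and Gpr17 (74.4 to 79.4) lay closer to the blank spots. Of 7 tested precursor markers 5 were lower in the knockdown (Pdgfra, Cspg4, Sox10, Lhfpl3 and Olig2, the last not without knockdown replicate 2 or 3), and the list's summed intensity was 12630 to 14910 in the controls and 9712 to 11010 in the knockdown. Of 7 neuronal markers Dcx and Map2 were lower, Map2 only with all 6 arrays (summed intensity 961 to 1088 against 757 to 904). Dcx was the brightest of these 7 and weighed most in the sum. By sign 3 of the 7 had log2 differences above 0 (up to 0.20, Syt1) and 4 below, and the other 5 did not pass. The summed intensity of astrocyte markers overlapped (14280 to 15010 against 14140 to 15040), with Gfap near the lower end of the scale. Within this list Gja1 (0.44) and Aldoc (-0.18) had log2 differences of opposite sign, and neither passed. Sums also overlapped for oligodendrocyte markers (1175 to 1529 against 1112 to 1474) and microglia and macrophage markers (515 to 535 against 528 to 543). The same held for endothelial markers (127 to 142 against 134 to 140, from 2 tested genes) and fibroblast and pericyte markers (385 to 391 against 384 to 394.5). The part of the lower precursor markers, Dcx and Map2 in the results that follow was not tested. In bulk RNA, fewer cells of a type and less RNA per cell cannot be told apart.

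Of the 10 genes, 1 rose in the knockdown, Hmox1, and 9 did not pass the test, in the fit that leaves the replicate number out. This share of 1 in 10 compares with 4.49% of all genes called higher. The count of members called lower was 0 in limma at the adjusted threshold, and at an unadjusted p below 0.05 there were 4 higher (Hmox1, Gclc, Srxn1 and Gsr) and 0 lower, against 11.9% and 12.7% of all genes. For 5 of the 10 every knockdown array read above every control array, which was so for 14.5% of all genes, and no member showed the reverse, seen in 15.4% of all genes (29.9% in either direction). The median log2 difference of the 10 was 0.08 against 0.00077 over all genes tested, and the values ran from -0.16 to 0.31. These counts describe the genes, which were chosen with earlier results of these data known, and carry no test of their own. With the replicate number of the labels as a block, 3 of the 10 passed as higher, Hmox1, Gclc and Srxn1, against 7.39% of all genes in that fit.

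**Figure D1:**
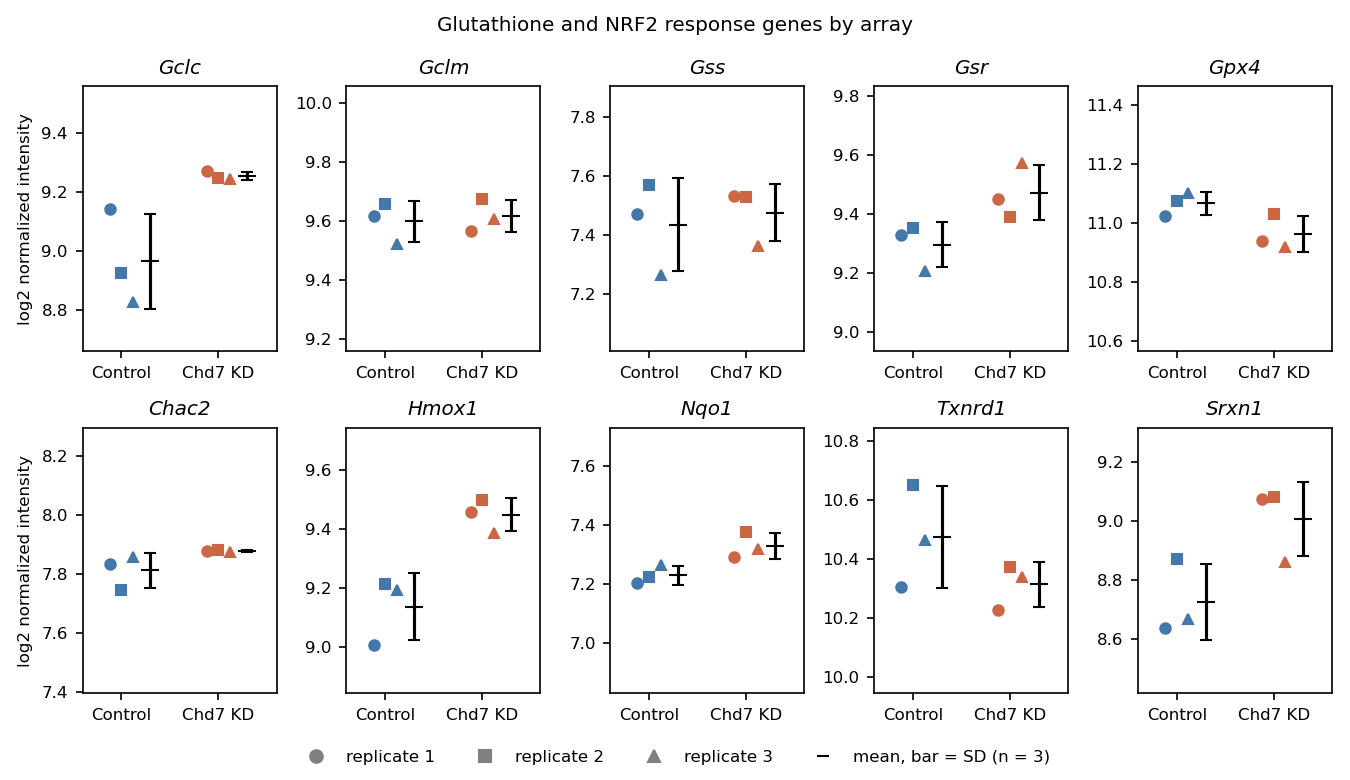
Log2 normalized intensity (y axis, each panel spanning the same range) of the 10 genes on each array, by group (x axis); symbols mark replicates 1 to 3 and the black dash and bar are the mean and SD of 3 arrays. Every knockdown array lies above every control array for Gclc, Gsr, Chac2, Hmox1 and Nqo1, by the widest gap in Hmox1, where the controls end at 9.21 and the knockdown begins at 9.39.

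Hmox1 encodes haem oxygenase 1, the inducible enzyme that opens haem to biliverdin, iron and carbon monoxide and a classic target of NRF2. Taken in the order of replicates 1 to 3, its log2 intensity was 9.005, 9.21 and 9.19 on the control arrays, with 9.46, 9.50 and 9.39 on the knockdown arrays. The groups did not overlap, and control replicate 1 was the lowest array. The means were 9.14 ± 0.114 (SD, n = 3) and 9.45 ± 0.056 (SD, n = 3), which differ by 0.31 log2 units (SE 0.0783, 95% confidence interval 0.13 to 0.49, adjusted p = 0.0393, limma), or 124% of the control signal. The call rested on all 6 arrays: Hmox1 fell short of the threshold when any 1 was left out (adjusted p by array left out: control replicate 1, 0.0764; 2, 0.0681; 3, 0.0672; knockdown replicate 1, 0.115; 2, 0.131; 3, 0.073), with log2 differences of 0.25 to 0.35. Nor did it pass with median scaling, at adjusted p = 0.169, in the authors' processed values (0.144) or with the scanner gain group as a block (0.0766), while the block on replicate number gave 0.0213. Macrophages and microglia are known for high Hmox1. Of their 7 tested markers 0 passed in limma, at adjusted p of 0.536 to 0.953, and 0 had an unadjusted p below 0.05. Their mean log2 intensity in the controls ran from 5.76 for Ptprc to 6.64 for Cd68, with C1qa, Cx3cr1 and Tyrobp below and Aif1 and Csf1r close to the median of 6.55 over all tested genes and arrays. Their summed intensity was 515 to 535 in the controls and 528 to 543 in the knockdown, and their part in the Hmox1 difference was not tested. Hmox2, the constitutive haem oxygenase, read 9.46 and 9.52 (log2 difference 0.07, adjusted p = 0.695).

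The other NRF2 response enzymes did not pass in the fit without the replicate number as a block. Srxn1 encodes sulfiredoxin, which restores overoxidised peroxiredoxins. Its brighter probe read 8.64, 8.87 and 8.67 on the control arrays, with 9.07, 9.08 and 8.86 on the knockdown arrays, so that knockdown replicate 3 lay just below control replicate 2. The log2 difference was 0.28 (SE 0.091, 95% confidence interval 0.07 to 0.49, adjusted p = 0.0896), and 0.031 with the replicate number as a block. The dimmer probe read 7.24, 7.40 and 7.12 against 7.39, 7.52 and 7.30, a smaller difference of 0.15 in the same direction (SE 0.0835, adjusted p = 0.321 over all probes). On both probes the groups overlapped, and on both each knockdown array lay above the control array of its own number.

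Nqo1 encodes the quinone reductase that is widely used as a readout of NRF2 activity. It read 7.20, 7.22 and 7.26 on the control arrays, with 7.29, 7.38 and 7.32 on the knockdown arrays. The groups did not overlap, but the difference was small, at a log2 difference of 0.10 (SE 0.0517, 95% confidence interval -0.02 to 0.22, adjusted p = 0.279). Txnrd1, the cytosolic thioredoxin reductase, had a value of the opposite sign. Its intensity was 10.31, 10.65 and 10.46 on the control arrays, with 10.23, 10.37 and 10.34 on the knockdown arrays, a log2 difference of -0.16 (SE 0.0966, 95% confidence interval -0.38 to 0.06, adjusted p = 0.357). Control replicate 1 lay among the knockdown arrays, so the groups overlapped. The members named for the NRF2 response thus held values of both signs. Of these only that of Hmox1 passed in the fit with all arrays and without the block.

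**Figure D2:**
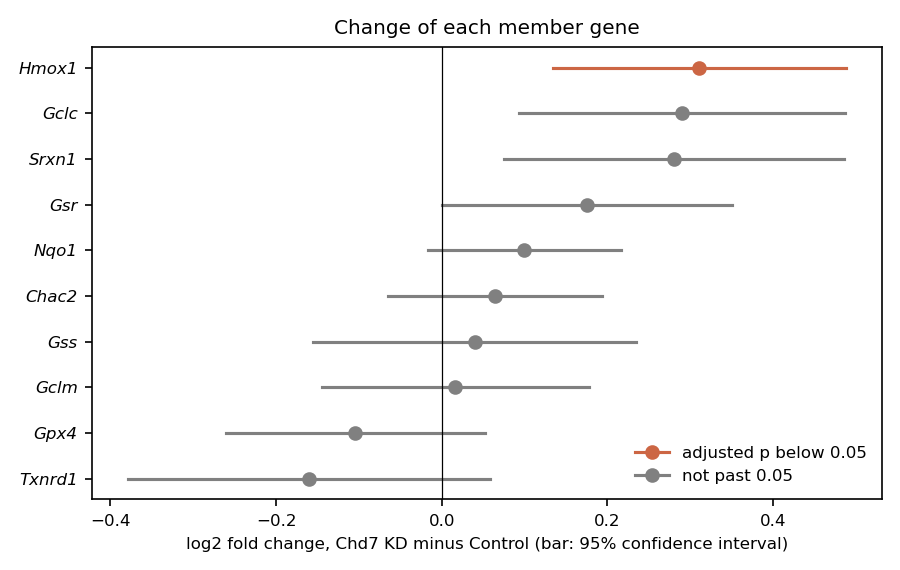
Log2 fold change of each gene, Chd7 KD minus Control (x axis), with its 95% confidence interval from limma (bars, not adjusted for the number of genes). The value of Hmox1, 0.31, is the highest and the one that passed at an adjusted p below 0.05, while the intervals of Nqo1, Chac2, Gss, Gclm, Gpx4 and Txnrd1 include 0.

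Of the synthesis genes, the catalytic subunit and the modifier subunit gave different values. Gclc read 9.14, 8.92 and 8.83 on the control arrays, with 9.27, 9.25 and 9.24 on the knockdown arrays. The knockdown arrays lay within a narrow band (SD 0.0134, n = 3) above all controls, which spread more widely (SD 0.162, n = 3). The log2 difference was 0.29 (SE 0.0869, 95% confidence interval 0.09 to 0.49, adjusted p = 0.07), short of the threshold. Gclc passed with the replicate number as a block (adjusted p = 0.0315), with array weights (0.0306), without control replicate 1 (0.0169) and without both arrays numbered 1 (0.0415). It did not pass without any other single array (0.154 to 0.182).

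Gclm, by contrast, read 9.62, 9.66 and 9.52 on the control arrays, with 9.57, 9.67 and 9.61 on the knockdown arrays. The groups were interleaved, with a log2 difference of 0.02 (SE 0.0711, 95% confidence interval -0.14 to 0.18, adjusted p = 0.921). The sign of this value turned with median scaling (-0.02), cyclic loess (-1.7e-04) and in the authors' values (-0.04). Whether Gclc and Gclm differed in their response was not tested. Gss, the synthetase that adds glycine in the last step, read 7.47, 7.57 and 7.26 on the control arrays, with 7.53, 7.53 and 7.36 on the knockdown arrays. Its groups overlapped as well, and the log2 difference was 0.04 (SE 0.0861, 95% confidence interval -0.15 to 0.23, adjusted p = 0.829). In both groups of Gss the array numbered 3 was the lowest.

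Gsr encodes glutathione reductase, which returns oxidised glutathione to its reduced form with NADPH. It read 9.33, 9.35 and 9.21 on the control arrays, with 9.45, 9.39 and 9.57 on the knockdown arrays, with a gap of only a few hundredths between the highest control and the lowest knockdown array. The log2 difference was 0.18 (SE 0.0774, 95% confidence interval 0.00043 to 0.35, adjusted p = 0.202). Gpx4 encodes the peroxidase that uses glutathione to reduce lipid hydroperoxides in membranes and thereby holds back ferroptosis. It read 11.03, 11.08 and 11.10 on the control arrays, with 10.94, 11.03 and 10.92 on the knockdown arrays. Knockdown replicate 2 lay just above control replicate 1, and the log2 difference was -0.10 (SE 0.0691, 95% confidence interval -0.26 to 0.05, adjusted p = 0.403). The annotation assigns the Gpx4 probe to a non-coding RefSeq transcript of that gene, and which coding transcripts it also reads is not stated in the files or labels.

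Chac2 encodes a gamma-glutamyl cyclotransferase that degrades glutathione slowly. It read 7.83, 7.75 and 7.86 on the control arrays, with 7.88, 7.88 and 7.87 on the knockdown arrays. The knockdown arrays lay above the controls by 0.014 at the nearest pair, those numbered 3, and the log2 difference was 0.06 (SE 0.0573, 95% confidence interval -0.07 to 0.19, adjusted p = 0.546). Its paralogue Chac1, the fast and stress-induced enzyme of the same reaction, read 6.61, 7.002 and 6.61 against 9.01, 8.52 and 8.57. Chac1 rose by 1.96 on the log2 scale (SE 0.145, adjusted p = 4.2e-04) and passed without any 1 of the 6 arrays. The difference between the responses of the 2 paralogues was not tested as such, but the 95% confidence interval of Chac2 ended at 0.19 and that of Chac1 began at 1.63.

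Set against the control array of the same replicate number, the members fell into those with 1 sign throughout and those without. Hmox1 was higher by 0.45, 0.29 and 0.20 for numbers 1 to 3, Srxn1 by 0.44, 0.21 and 0.19, and Gclc by 0.13, 0.32 and 0.42. Gsr differed by 0.12, 0.04 and 0.37, mostly through number 3. In Hmox1 and Srxn1 the difference was thus widest for number 1, and in Gclc and Gsr for number 3. Chac2 and Nqo1 were also higher for all 3 numbers, Txnrd1 (-0.08, -0.28 and -0.13) and Gpx4 (-0.09, -0.04 and -0.18) lower for all 3, and Gclm and Gss had both signs.

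**Figure D3:**
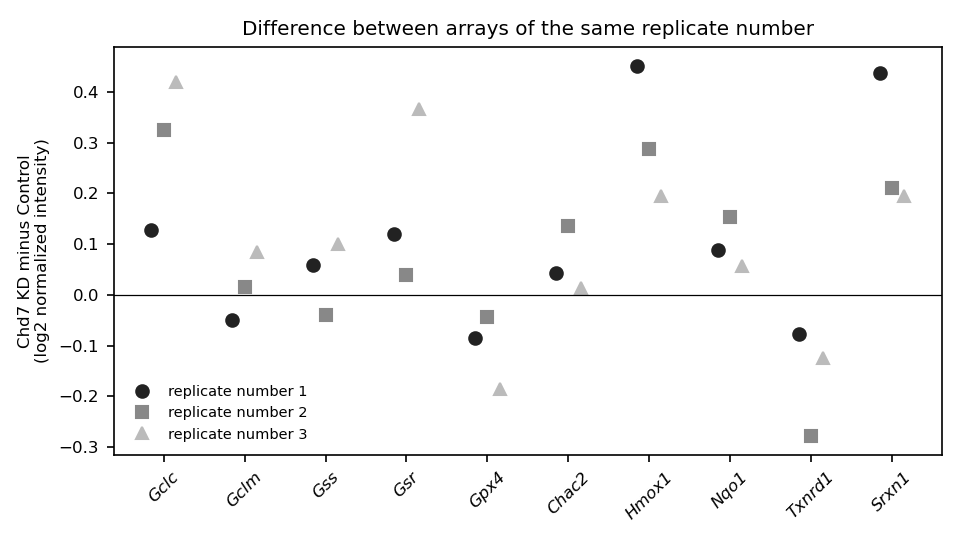
Difference in log2 normalized intensity between the knockdown and the control array of the same replicate number (y axis) for each gene (x axis); symbols mark replicate numbers 1 to 3. Hmox1 and Srxn1 are highest for number 1 (0.45 and 0.44), Gclc and Gsr for number 3 (0.42 and 0.37), and the points of Gclm and Gss lie on both sides of 0.

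The scanner gain formed a pair of array sets, each with arrays of both groups, and within both sets all 10 members kept the sign they had over all arrays. In the set of control replicates 1 and 2 with knockdown replicate 2, the log2 differences were 0.39 for Hmox1, 0.33 for Srxn1, 0.22 for Gclc and 0.05 for Gsr. In the set of control replicate 3 with knockdown replicates 1 and 3 they were 0.23, 0.30, 0.43 and 0.30. None of these passed (adjusted p of 0.161 to 0.914), and the single array of a group was there taken to vary as much as the rest.

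**Figure D4:**
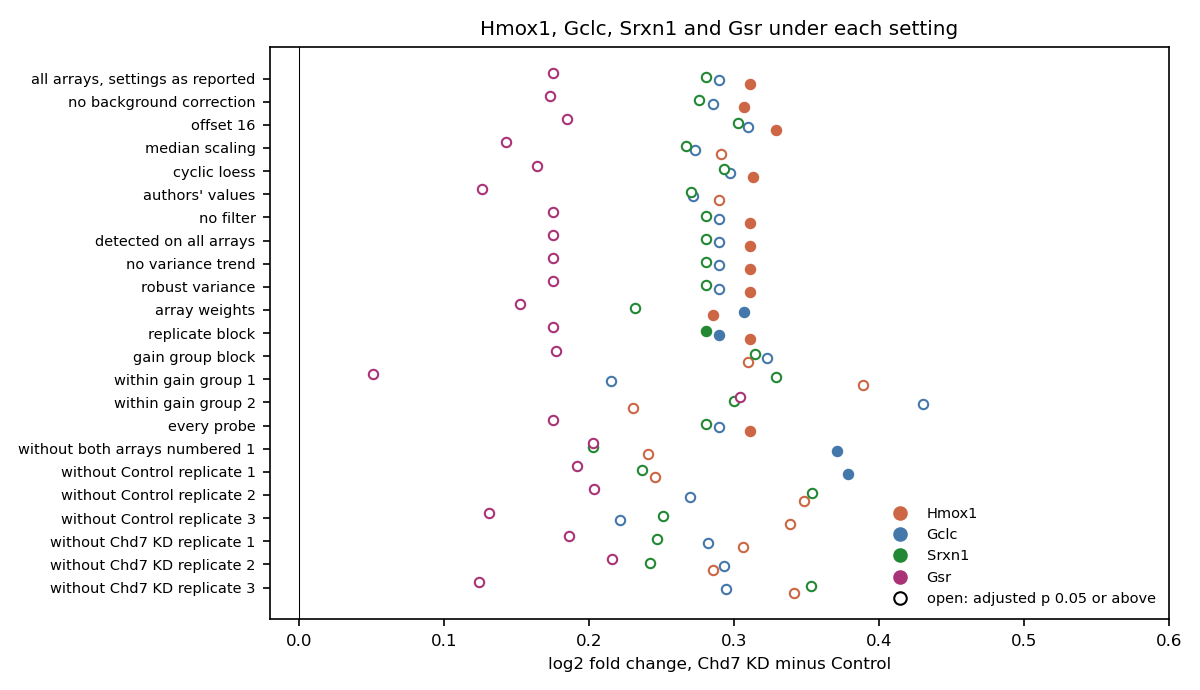
Log2 fold change (x axis) of the 4 members with an unadjusted p below 0.05 under each way of processing or set of arrays (y axis); filled points passed at an adjusted p below 0.05 and open points did not. All values are above 0, between 0.05 and 0.43, while the calls of Hmox1, Gclc and Srxn1 come and go with the setting.

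Of the other genes of the pathway, 89 from 7 lists were tested, of which 14 rose (15.7%, against 4.49% of all genes), 3 fell (3.37%, against 5.16%) and 72 did not pass. Their median log2 difference was 0.04, against 0.00077 over all genes. The lists were chosen with earlier results of these data known, and they hold Chac1, whose log2 difference of 1.96 was the highest of all genes tested. These shares therefore describe the lists and carry no test of their own. Median scaling gave 8 higher and 2 lower, where 3.02% and 4.07% of all genes were called. The authors' values gave 5 higher and 3 lower, where 2.23% and 4.48% of all genes were called. When 1 array was left out the number that rose was 12 for control replicate 1, 7 for control replicate 2, control replicate 3 and knockdown replicate 2, 6 for knockdown replicate 1 and 8 for knockdown replicate 3. With the replicate number as a block 19 rose and 7 fell (21.3% and 7.87%), against 7.39% and 7.45% of all genes in that fit.

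NRF2 itself did not pass: Nfe2l2 read 9.02, 8.86 and 8.93 on the control arrays, with 9.05, 8.96 and 9.13 on the knockdown arrays (log2 difference 0.11, SE 0.0756, adjusted p = 0.421). Keap1, its inhibitor, read 7.45, 7.95 and 7.74 against 7.35, 7.53 and 7.48, a log2 difference of -0.26 (SE 0.116, adjusted p = 0.206). Keap1 passed with the replicate number as a block (adjusted p = 0.0329) and without control replicate 1, the lowest control (0.0286). Of the 11 tested genes of NRF2 and its regulators 1 passed, as higher (9.09%, against 4.49% of all genes). Nfe2l1, which encodes the related factor NRF1 that controls proteasome genes, rose by 0.41 (SE 0.0768, adjusted p = 0.0132) and did not pass without control replicate 2 (0.0502) or in the authors' values (0.0609). The small MAF partner genes Mafg (0.17), Maff (0.06) and Mafk (0.05) lay above all controls on all knockdown arrays, and none of the 3 passed (adjusted p of 0.128 to 0.239). Maff and Mafk were dim (raw signal up to 83.3 and 71), and in Maff the nearest arrays of the groups read 6.126 and 6.128. Of the 11 genes of this list 5 lay above all controls and 1, Rbx1, lay below them, against 14.5% and 15.4% of all genes.

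Of 6 cystine and cysteine supply genes 2 rose and 1 fell (33.3% and 16.7%, against 4.49% and 5.16% of all genes). Those that rose, Cbs (0.52, SE 0.0852, adjusted p = 0.00695) and Cth (0.38, SE 0.0545, adjusted p = 0.00442), encode the 2 enzymes that make cysteine from homocysteine, and both passed without any 1 of the 6 arrays. Cbs read 7.64, 7.46 and 7.45 on the control arrays, with 8.19, 7.92 and 8.004 on the knockdown arrays. Slc1a1, a glutamate and cysteine transporter gene, fell by 0.20 on its brighter probe (adjusted p = 0.0319). Its dimmer probe, near the bottom of the scale, read -0.0075, and leaving out control replicate 2, control replicate 3, knockdown replicate 1 or knockdown replicate 2 ended the call (up to 0.106). Slc7a11, the cystine importer and a textbook target of both NRF2 and ATF4, had low signal (6.25 ± 0.0674 and 6.30 ± 0.0434, SD, n = 3) and a log2 difference of 0.05 (SE 0.0414, adjusted p = 0.529).

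Of 7 genes of glutathione breakdown and turnover 2 rose (28.6%, against 4.49% of all genes). They were Chac1 and the leucine aminopeptidase gene Lap3 (0.26, adjusted p = 0.0437), and the Lap3 call needed all 6 arrays (up to 0.14 without 1 of them). Of 19 peroxidases, transferases and glutaredoxins 3 rose (15.8%, against 4.49% of all genes) and 16 did not pass. Mgst1, a membrane-bound glutathione transferase, read 10.89, 10.67 and 10.51 on the control arrays, with 11.51, 11.22 and 11.21 on the knockdown arrays. Its log2 difference was 0.62 (SE 0.117, adjusted p = 0.0127), and it passed without any 1 of the 6 arrays. Gsta4, a transferase for lipid aldehydes, rose by 0.35 (adjusted p = 0.0165) a call that ended when control replicate 2, knockdown replicate 1 or knockdown replicate 3 was left out (up to 0.0676). Glrx, a glutaredoxin that removes glutathione from proteins, rose by 0.28 (adjusted p = 0.0423) and was lost without any 1 array (up to 0.131).

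Of 19 thioredoxin, peroxiredoxin, superoxide dismutase and catalase genes, 1 rose and 1 fell (5.26% each). These shares were near the 4.49% and 5.16% of all genes. Of the 19 genes, 3 lay above all controls on all knockdown arrays and 4 below (15.8% and 21.1%, against 14.5% and 15.4% of all genes). Prdx3, the mitochondrial peroxiredoxin, rose by 0.48 (SE 0.102, adjusted p = 0.0209), a call that needed control replicate 3 and knockdown replicates 1 and 2 (up to 0.0626 without 1 of them). Sesn3, a sestrin gene, fell by 0.22 (adjusted p = 0.0379) and held only without control replicate 1 among the fits that left out 1 array (up to 0.128). Of 18 NADPH supply and other NRF2 target genes 4 rose and 1 fell (22.2% and 5.56%, against 4.49% and 5.16% of all genes). By sign 9 of the 18 lay above 0 and 9 below, with a median of 0.03. The NADPH supply genes Pgd (0.07), Tkt (-0.08), Taldo1 (-0.08), Me1 (0.22) and Idh1 (-0.26) did not pass. Ephx1, the microsomal epoxide hydrolase gene, rose by 0.42 (adjusted p = 0.0201) and Fth1, the ferritin heavy chain gene, by 0.31 (adjusted p = 0.0267). Blvrb, the biliverdin reductase B gene, rose by 0.28 (adjusted p = 0.0478), while Blvra, the biliverdin reductase A gene, did not pass (-0.04, adjusted p = 0.863, limma). Akr1b8, an aldo-keto reductase gene near the bottom of the scale, rose by 0.14 (adjusted p = 0.00924). Akr1b8 passed without any 1 of the 6 arrays. Ephx1 needed control replicate 3 and knockdown replicates 1 and 2 (up to 0.0784 without 1 of them), Fth1 every array but control replicate 1 (up to 0.104), and Blvrb all 6 (up to 0.158). Ugdh, which makes UDP-glucuronate for conjugation and for glycosaminoglycans, fell by 1.04 (adjusted p = 4.2e-04). Of 9 iron and ferroptosis genes 1 rose (11.1%, against 4.49% of all genes). Lpcat3, which loads polyunsaturated fatty acids into phospholipids, rose by 0.43 (SE 0.101, adjusted p = 0.0311) and passed without control replicate 1 but not without any other 1 array (up to 0.107).

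**Figure D5:**
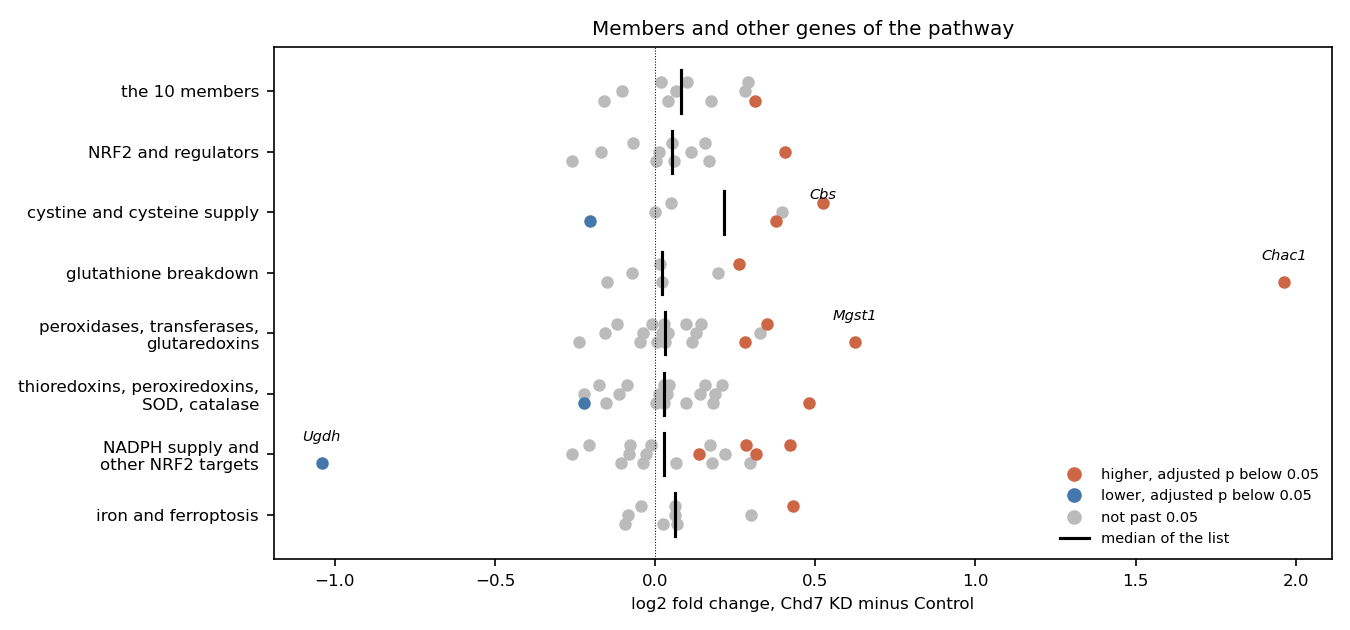
Log2 fold change, Chd7 KD minus Control (x axis), of the 10 members and of the other pathway genes by list (y axis), 1 point per gene, coloured by whether it passed at an adjusted p below 0.05; black lines are the median of each list. The members' values lie between -0.16 and 0.31, while Chac1 (1.96) and Ugdh (-1.04) stand farthest from 0.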

How the data were processed

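RNA of 6 samples was amplified and labelled with Cy5 by an amino allyl method, per the labels' protocols. The deposited intensity of a spot is its median at 635 nm, combined from 3 gains by a least-squares fit, per the file headers. The authors also deposited processed intensity values, whose scaling, log and centring are not given in the sources used here and which served as an alternative as log2(value + 5). Members and lists were chosen with earlier results of these data known.

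With limma 3.58.1 (R 4.3.3), normexp with an offset of 50 was run on all spots without local background, followed by quantile normalization, log2 and the mean over spots of a probe. The offset makes changes of dim genes smaller. Figures come from matplotlib 3.10.9. Testing required a raw signal above a limit (blank mean plus 2 SD) on 3 or more of the 6 arrays. All 11 member probes met it on all 6 (raw signal 149 or more, limits of 60.6 to 64). The number of arrays limits the precision. Symbols came from the platform annotation, updated by Entrez ID: of 23472 probes 20689 had 1 symbol and 2783 none, and 1 other probe, marked bad at every gain, was left out. Each gene was represented by its brightest probe.

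Groups were compared in limma (lmFit, eBayes with a trend; two-sided) with Benjamini-Hochberg adjustment over 17390 genes, or over 20957 probes for second probes. Named were all members, Chd7, Nfe2l2, Keap1, Slc7a11, Chac1, Pdgfra, up to 6 called genes of each list and called markers. Outside this rule, Hmox2, Mafg, Maff, Mafk, Rbx1, Olig1, Gpr17, Gfap, Gja1, Aldoc, Ptprc, C1qa, Cx3cr1, Glo1 and Gstt1 were picked with their values in view. The same holds for Cd68, Tyrobp, Aif1, Csf1r, Syt1, Pgd, Tkt, Taldo1, Me1, Idh1 and Blvra.

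Both groups carry the numbers 1 to 3. After subtracting group means, same-numbered samples correlated at 0.361, 0.382 and 0.228, so the numbers were taken to pair the samples, an inference from the values and not from the labels. Values are from the fit without the block, which leaves this pairing out, and the blocked value is given where it changes a call. Gain slopes in the file headers formed 2 sets (0.464 to 0.467 and 0.478 to 0.479). The procedure was also run on simulated data, drawn without the pairing. Its recovery of changes as small as those of the members is not reported here. Alternatives changed the background, offset, normalization, filter, variance model, array weights, blocks, threshold, probes and arrays.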

Additional observations from a re-analysis of the deposited data

How the results depend on the processing

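All 10 members were refitted under 22 alternatives. Of the 220 values 213 kept their sign, the others being of Gclm and Gss, and 203 kept sign and call. In 12 fits Hmox1 lost its call, and Gclc gained one in 4 fits, in 1 of which, the replicate block, Srxn1 gained one too. With median scaling 0 members and 8 pathway genes were higher. In the authors' values 376 genes in all, 0 members and 5 pathway genes were higher. With array weights 2 members were higher and 5 pathway genes lower. With the replicate block 1285 genes in all and 3 members were higher and 7 pathway genes lower. With the gain group as a block 0 members were higher. Within the first gain set 24 genes were higher and 15 lower, with 0 members, 1 pathway gene higher and 1 lower, and Chd7 at -0.88 (adjusted p = 0.103, limma). Within the second 10 were higher and 29 lower, with 0 members, 1 pathway gene higher and 0 lower, and Chd7 at -0.95 (adjusted p = 0.0603). At an adjusted p below 0.1 there were 1274 higher and 1414 lower, with 3 members higher and 6 pathway genes lower. Without both arrays numbered 1 there were 378 higher and 422 lower, with 9 pathway genes higher and 1 lower, and 1 member, Gclc in place of Hmox1. Leaving out 1 array gave 355 to 679 higher and 395 to 772 lower genes, 0 to 1 members higher, and 6 to 12 pathway genes higher and 1 to 6 lower. Chd7 passed in each of these 6 fits (log2 difference -0.97 to -0.83). The cause was not tested, except that fits without an array rest on fewer samples. Of 594 values of the 27 other named genes all kept their sign, 143 lost a call and 2 gained one. The replicate block changed no other member's call. With 3 arrays a group the SE of a member's log2 difference was 0.0517 to 0.0966.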

Other observations

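Glo1 and Gstt1, a glyoxalase that works with glutathione and a glutathione transferase, varied by replicate number and not by group, an observation made after their values were seen. In the order of replicates 1 to 3, Glo1 read 10.89, 11.63 and 11.07 on the control arrays, with 10.80, 11.84 and 10.80 on the knockdown arrays, so that the array numbered 2 was the highest in each group. Its other probe gave 10.76, 11.22 and 11.12 against 10.74, 11.93 and 11.07, with number 2 highest again. Gstt1 read 8.79, 9.23 and 8.58 against 8.71, 9.43 and 8.43. The log2 differences between the groups were -0.05 (SE 0.282) for the brighter probe of Glo1, 0.22 (SE 0.26) for its other probe and -0.01 (SE 0.244) for Gstt1, and none passed the test. What the replicate number marks is not given in the labels.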
